A study of Mus musculus with 20 samples.

Results

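The 8 genes described here were taken by name from a table of 54986 genes measured by RNA-Seq in 20 libraries: Pcbp1, which encodes hnRNP E1, its relatives Pcbp2, Pcbp3, Pcbp4 and Hnrnpk, the hnRNP E1 translational targets Dab2 and Fam3c, and Eef1a1. The rule used gene names and no measured value, but the members were chosen with earlier results of these data known. The cells are NMuMG, a normal murine mammary gland epithelial line that undergoes an epithelial-mesenchymal transition (EMT) with TGFβ or after loss of hnRNP E1. The comparisons ask whether relatives of Pcbp1 were higher where Pcbp1 was silenced, and whether the mRNA of the targets or of Eef1a1 changed.

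Each of the 10 conditions had 2 libraries. NMuMG was the untreated wild type line, and NMuMG + TGFβ was the same line after 4 days of TGFβ. E1KD was NMuMG carrying an shRNA against hnRNP E1. M1P and L1P carried the same shRNA and were cells returned to culture from the primary tumor and from the lung metastasis that formed about 12 weeks after injection of E1KD cells into the mammary fat pad of 6-week-old NOD/SCID mice. Empty vector was NMuMG with the empty overexpression vector, and Platr18 clone 12 and Platr18 clone 16 were single NMuMG clones that overexpressed the long noncoding RNA Platr18. E1KD SCR carried the hnRNP E1 shRNA and a scrambled shRNA, and E1KD Platr18 KD carried the hnRNP E1 shRNA and an shRNA against Platr18. The untreated NMuMG and Empty vector controls are not labelled as carrying a control hairpin, so an effect of the hnRNP E1 shRNA and an effect of carrying any hairpin cannot be told apart. Nothing in the labels says that the libraries of a condition came from separate cultures or animals, so p-values measure only the spread between these libraries.

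The libraries were of 2 kinds, and every comparison was made within a kind. Mitochondrial 16S rRNA (mt-Rnr2) stood at 333 to 492 counts per 1000000 reads (CPM) in NMuMG, NMuMG + TGFβ, E1KD, M1P and L1P, named low mt-Rnr2 libraries here, and at 113874 to 165149 CPM in the other 5 conditions, the high mt-Rnr2 libraries. Values were scaled to 50.8 to 60.03 M reads in the first kind and 63.0 to 147 M reads in the second (M, 1000000). E1KD replicate 1 stood apart: its CPM summed to 0.729 of 1000000 against 0.547 to 0.581 in the other low mt-Rnr2 libraries, and its values exceeded those of E1KD replicate 2 by a median of 0.29 on the log2(CPM + 1) scale. Where leaving it out changed a call or moved an E1KD value by more than 1.5 times, the value without it is given. Of 9 epithelial markers, Krt8, Krt18, Krt19, Cdh1, Tjp1 and Ocln were present in each condition, whereas Epcam, Cldn3 and Cldn7 were at or under the level of 3 reads. The 10 leukocyte, endothelial and blood markers summed to at most 7.09 CPM in any library, with Tyrobp and Hbb-bs at 0. Their sum was 2.35 to 3.60 CPM in E1KD, 5.96 to 6.72 in M1P and 6.83 to 7.09 in L1P, and the mean of Lyz2, a myeloid marker, was 0.221, 3.05 and 4.65 CPM. In the same order the mean of Cd68 was 2.03, 2.68 and 1.93 CPM. Ptprc was 0.0093, 0.0617 and 0.0293 CPM, and Adgre1 was at 0. In these bulk cultures, fewer cells expressing a gene and less RNA per cell cannot be told apart.

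PCBP proteins and hnRNP K bind C-rich stretches of RNA and DNA through KH domains. hnRNP E1 is known to bind a structural element, termed BAT, in the untranslated region of mRNAs such as Dab2 and Fam3c and to hold the elongation factor eEF1A1 on the ribosome, which blocks translation elongation. TGFβ signalling through Akt2 phosphorylates hnRNP E1 and releases that block, so in this model the targets are controlled in their translation. RNA-Seq reads the mRNA level and not translation.

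Pcbp1 has 1 exon and lies at chr6:86524492-86526321 on the minus strand of GRCm38 (ENSMUSG00000051695). Its coding sequence was identical to that of Pcbp2 at 82.3% of aligned bases, to Pcbp3 at 73.9%, to Pcbp4 at 68.9% and to Hnrnpk at 59.7%. The 4 Pcbp genes were most alike in a stretch of 30 coding bases of the first KH domain, which is shown because it bears on whether reads of one gene can be counted for another. Letters are from GENCODE M21 (GRCm38), and capitals mark bases that differ from Pcbp1.

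Pcbp1: ggaaaggaagtaggcagcatcatcgggaag

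Pcbp2: ggaaaggaagtTggcagTatcatcggAaag

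Pcbp3: ggaaaggaagtTggAagcatcatcgggaag

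Pcbp4: ggGaaggaagtGggcagcatcatTgggaag

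Even there, each relative differed from Pcbp1 at 2 or 3 bases, and the longest run identical between Pcbp1 and Pcbp2 was 33 bases. No 50-base window of the Pcbp1 transcript occurred in another Pcbp gene. Of its 1781 windows, 2 occurred elsewhere, in the antisense gene that overlaps it (RP23-20K24.5, 3.04 to 8.48 CPM over the 20 libraries). Pcbp3, Dab2 and Fam3c shared no window with another gene, and Pcbp4 shared 2, with the overlapping gene Gpr62 (at most 0.796 CPM). By contrast, 53.0% of Pcbp2 windows, 37.8% of Hnrnpk windows and 60.6% of Eef1a1 windows occurred in other genes, on either strand. The levels of these 3 genes may therefore depend on how reads were split, which was not tested.

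Pcbp1, the gene targeted by the shRNA, was read first. It stood at 287 and 312 CPM in NMuMG, 210 and 219 in NMuMG + TGFβ, 16.6 and 14.2 in E1KD, 26.5 and 27.6 in M1P and 28.6 and 30.5 in L1P. In the high mt-Rnr2 libraries it stood at 32.3 and 32.3 CPM in Empty vector, 37.2 and 43.7 in Platr18 clone 12, 38.5 and 38.4 in Platr18 clone 16, 3.28 and 3.46 in E1KD SCR and 3.04 and 2.92 in E1KD Platr18 KD. Within each kind, all silenced libraries lay below all unsilenced ones. The unsilenced Empty vector libraries lay close to the silenced M1P and L1P libraries of the other kind, and kind of library and cells cannot be told apart in that gap.

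**Figure D1:**
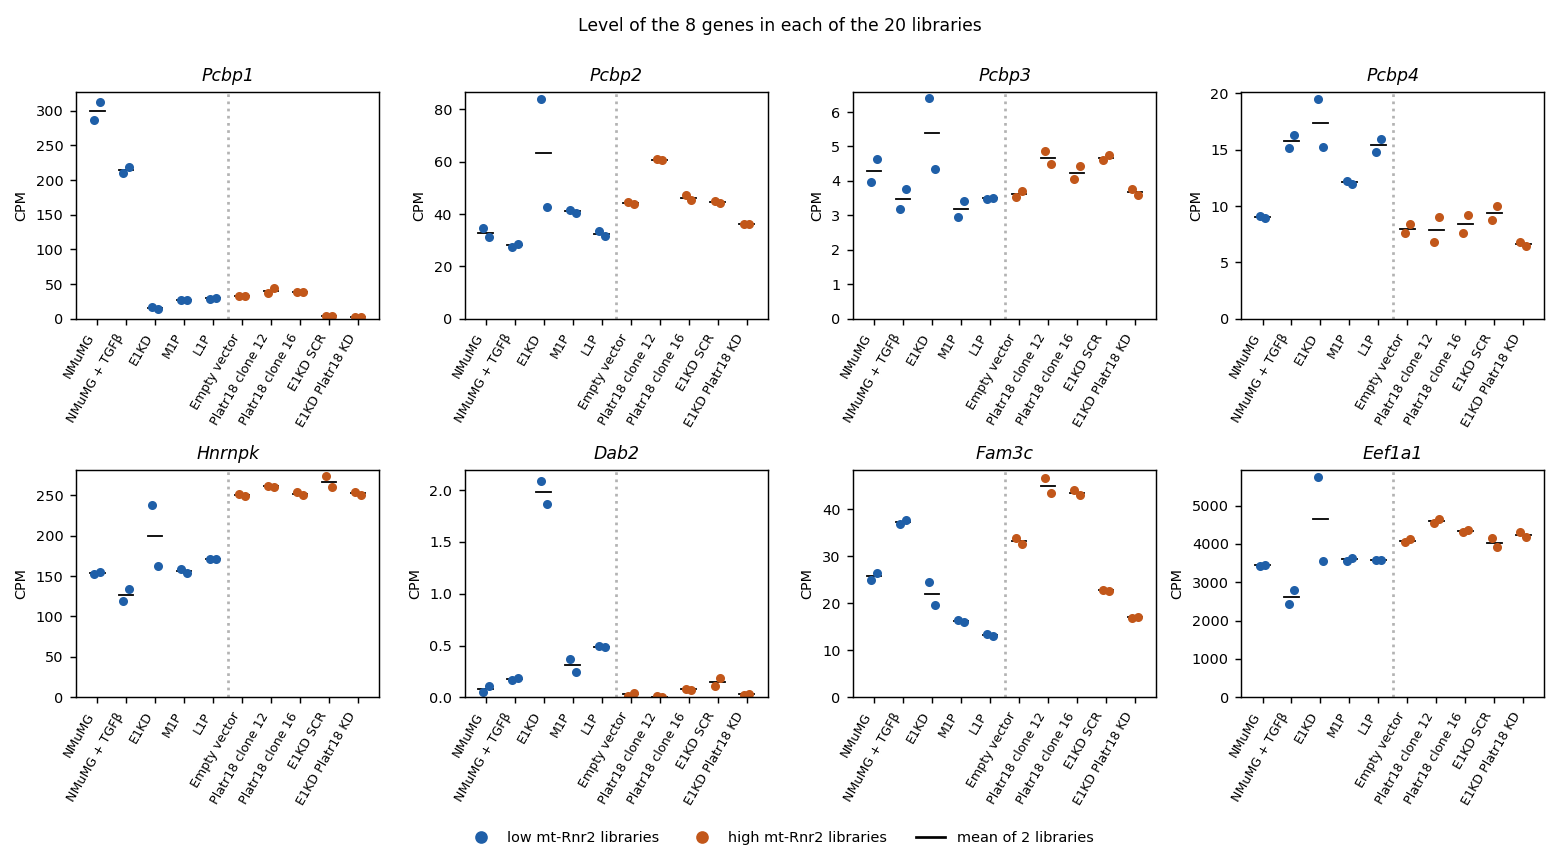
Level of the 8 genes in CPM (linear axes from 0) in the 20 libraries, with 2 points per condition, a black line at their mean and a dotted line between the low mt-Rnr2 libraries (blue) and the high mt-Rnr2 libraries (orange). Pcbp1 falls from 287 and 312 CPM in NMuMG to 16.6 and 14.2 CPM in E1KD, and E1KD replicate 1 lies above replicate 2 for each of the 8 genes.

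The E1KD mean of Pcbp1 was 5.15% of the NMuMG mean, a difference of -4.20 ± 0.08 (SE) in log2(CPM + 1), with an adjusted p = 2.69e-14. All differences below are on this scale, which understates changes of low genes. All adjusted p-values are from one limma fit over the 20 libraries, adjusted by Benjamini-Hochberg over 17106 genes. These genes reached 1 CPM in 2 or more libraries. That fit pools the spread of a gene over both kinds of library. Intervals and missed calls in high mt-Rnr2 libraries therefore carry the gap between the E1KD libraries, which was wide for Pcbp2, Hnrnpk and Eef1a1. Genes with an adjusted p under 0.05 are called changed. The E1KD SCR mean of Pcbp1 was 10.4% of the Empty vector mean (-2.93 ± 0.08, adjusted p = 1.83e-12). The difference between both effects was itself past the threshold (-1.27 ± 0.12, adjusted p = 3.26e-06).

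Pcbp1 also fell with TGFβ, by 0.48 ± 0.08 (adjusted p = 0.000236), and E1KD differed from NMuMG + TGFβ by -3.72 (adjusted p = 6.32e-14). M1P exceeded E1KD by 0.78 ± 0.08 (adjusted p = 6.8e-06), and L1P exceeded M1P by 0.12 ± 0.08 (adjusted p = 0.395), which was not called. Pcbp1 was higher in the Platr18 clones than in Empty vector (0.28 ± 0.07, adjusted p = 0.0108), by 0.31 in clone 12 (adjusted p = 0.0091) and by 0.24 in clone 16 (adjusted p = 0.0521). That call was lost in 2 of its alternatives (adjusted p up to 0.0748). E1KD Platr18 KD differed from E1KD SCR by -0.13 ± 0.08 (adjusted p = 0.328).

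In E1KD against NMuMG, 7 of the 8 genes were called, 5 higher and 2 lower, where 56.6% of all tested genes were called, 39.6% higher and 17.1% lower. Dab2, which reached 1 CPM only in E1KD, is among those 7. Without E1KD replicate 1 the call was kept by 5 genes, beside 57.6% of all tested genes. E1KD calls leaned upward: 69.9% of all called genes were higher, against 51.3% with median-of-ratios scaling and 49.1% with equal sums over protein-coding genes, and these scalings moved the median of all genes by -0.15 and -0.16. In E1KD SCR against Empty vector, 3 of the 8 were called, 1 higher and 2 lower, where 42.6% of all tested genes were called, 23% higher and 19.6% lower. A p that misses the threshold does not show that a gene stayed the same, so intervals are given below.

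**Figure D2:**
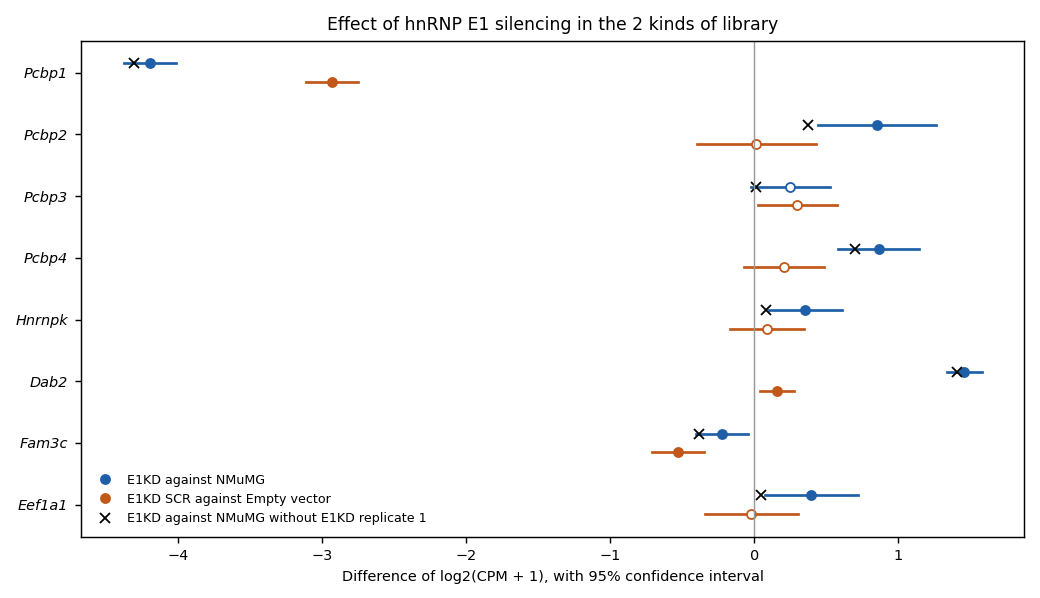
Difference of log2(CPM + 1) for the 8 genes after hnRNP E1 silencing in the low mt-Rnr2 libraries (blue, E1KD against NMuMG) and the high mt-Rnr2 libraries (orange, E1KD SCR against Empty vector). Bars are 95% confidence intervals from limma, filled points are called and open points are not. Crosses are the E1KD value without replicate 1, which lie nearer to 0 for Pcbp2, Pcbp3, Pcbp4, Hnrnpk, Dab2 and Eef1a1.

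Pcbp2 (ENSMUSG00000056851, chr15:102470539-102500061, plus strand) encodes hnRNP E2, the closest relative of hnRNP E1. It stood at 34.5 and 31.2 CPM in NMuMG, 27.6 and 28.4 in NMuMG + TGFβ, 83.9 and 42.8 in E1KD, 41.5 and 40.5 in M1P and 33.4 and 31.5 in L1P. E1KD replicate 1 was the highest, and both E1KD libraries lay above the other low mt-Rnr2 libraries. E1KD exceeded NMuMG by 0.85 ± 0.19 (adjusted p = 0.00176). Without E1KD replicate 1 the difference was 0.37 (adjusted p = 4.15e-05), and with equal sums over protein-coding genes it was 0.61 (adjusted p = 0.000359). L1P, also silenced, differed from NMuMG by -0.02 (95% interval -0.43 to 0.40, adjusted p = 0.99), and M1P by 0.31 (adjusted p = 0.204).

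In the high mt-Rnr2 libraries Pcbp2 stood at 44.5 and 43.7 CPM in Empty vector and at 45.0 and 44.1 in E1KD SCR, which overlap. E1KD SCR differed from Empty vector by 0.01 (95% interval -0.40 to 0.43, adjusted p = 0.974). That interval rests on the spread pooled over all 20 libraries, to which E1KD at 83.9 and 42.8 CPM contributed. Pcbp2 stood at 61.1 and 60.5 CPM in Platr18 clone 12, 47.3 and 45.2 in clone 16 and 36.1 and 36.3 in E1KD Platr18 KD. None of the Platr18 comparisons was called for Pcbp2 (adjusted p = 0.282 for both clones against Empty vector and 0.353 for the silencing of Platr18), although with only the high mt-Rnr2 libraries or other scalings some were (smallest adjusted p = 0.000178 and 0.000326). The difference of the silencing effect between the kinds was 0.84 ± 0.27 (adjusted p = 0.0411). It was 0.36 without E1KD replicate 1 (adjusted p = 0.00186), and it missed the threshold when either NMuMG, either Empty vector or either E1KD SCR library was left out (adjusted p = 0.0717 to 0.124).

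The Pcbp2 locus holds other genes. Map3k12, on the opposite strand, shared 48.1% of Pcbp2 windows and stood at 27.9 and 16.8 CPM in E1KD against 15.4 and 15.5 in NMuMG. The overlapping noncoding genes Gm26518 (20.6 and 6.01 CPM in E1KD, 5.16 and 5.22 in NMuMG) and Gm27406 (2.96 and 0.289 in E1KD, 0.202 and 0.302 in NMuMG) were also high in E1KD replicate 1. Their part in the Pcbp2 value was not tested. Counting by strand is not given in the sources used here, so reads of opposite strands cannot be told apart.

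Processed copies of 3 of the genes held large values. The Pcbp2 copies Gm6140 and Gm12186, which share 16 and 8 windows with it, summed to 77.6 and 80.3 CPM in NMuMG and 122 and 86.5 in E1KD, but to 8.96 and 9.66 in Empty vector. Pcbp2 itself was 27.96% to 40.8% of the summed gene and copies in low mt-Rnr2 libraries and 81.1% to 84.8% in high mt-Rnr2 libraries. Summed with its copies, Pcbp2 in E1KD exceeded NMuMG by 0.54 ± 0.14 (adjusted p = 0.00429, and 0.21 without E1KD replicate 1, adjusted p = 0.00319), NMuMG + TGFβ was lower by a log2 difference of -0.46 (adjusted p = 0.0114), E1KD SCR differed from Empty vector by 0.01 (adjusted p = 0.986), and the difference between the kinds was 0.54 (adjusted p = 0.067, and 0.20 without that library, adjusted p = 0.0368).

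**Figure D3:**
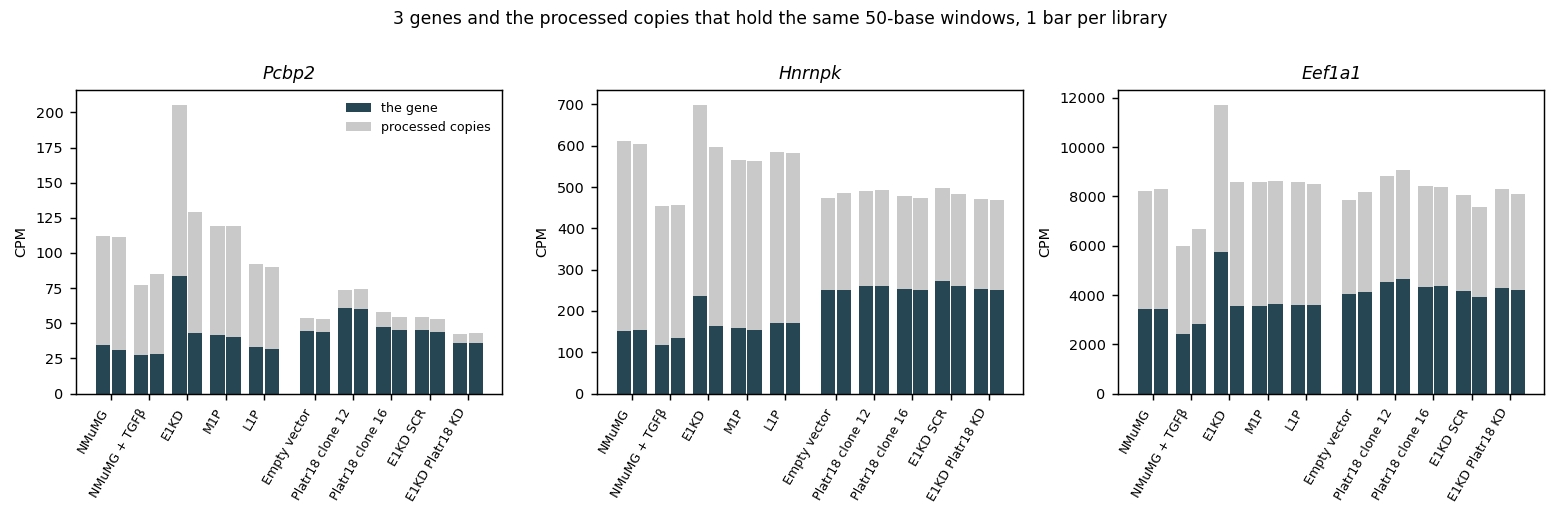
Level in CPM (linear axes from 0) of Pcbp2, Hnrnpk and Eef1a1 (dark) with their processed copies stacked on top (grey), 1 bar per library and 2 bars per condition. The copies make up most of the summed Pcbp2 and Hnrnpk level in the low mt-Rnr2 libraries (left 5 conditions), and the share of Pcbp2 itself is 81.1% to 84.8% in the high mt-Rnr2 libraries (right 5 conditions).

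Pcbp3 (ENSMUSG00000001120, chr10:76761857-76961887, minus strand) was the lowest of the family in CPM, except in E1KD SCR and E1KD Platr18 KD, where Pcbp1 was lower. It ranged from 2.97 to 6.42 CPM in the low mt-Rnr2 libraries and from 3.52 to 4.87 in the high ones. E1KD (6.42 and 4.34 CPM) overlapped NMuMG (3.96 and 4.64 CPM), with a difference of 0.25 (95% interval -0.02 to 0.52, adjusted p = 0.107) that was 0.01 without E1KD replicate 1. E1KD SCR (4.602 and 4.75 CPM) lay above Empty vector (3.52 and 3.71 CPM) without overlap, by 0.30 (95% interval 0.03 to 0.57, adjusted p = 0.0734). This passed the threshold in 4 of 12 alternatives, both other scalings among them (adjusted p = 0.00917 and 0.00792). Of the main comparisons Pcbp3 was called in M1P against E1KD alone, where it fell by 0.59 (adjusted p = 0.00202), and by 0.35 without E1KD replicate 1 (adjusted p = 0.0104).

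Pcbp4 (ENSMUSG00000023495, chr9:106453291-106464012, plus strand), a relative described as a p53-induced growth suppressor, was higher in every treated or silenced low mt-Rnr2 condition. It stood at 9.10 and 8.96 CPM in NMuMG, 15.2 and 16.3 in NMuMG + TGFβ, 19.5 and 15.3 in E1KD, 12.2 and 11.998 in M1P and 14.8 and 15.998 in L1P. The NMuMG libraries were the lowest, M1P came next, and NMuMG + TGFβ, L1P and E1KD overlapped one another. E1KD exceeded NMuMG by 0.86 ± 0.13 (adjusted p = 6.55e-05), and by 0.70 without E1KD replicate 1 (adjusted p = 0.000168). NMuMG + TGFβ exceeded NMuMG by 0.74 ± 0.13 (adjusted p = 0.000221), M1P by 0.39 (adjusted p = 0.024) and L1P by 0.71 (adjusted p = 0.000366). These 4 comparisons share the NMuMG libraries.

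In the high mt-Rnr2 libraries Pcbp4 stood at 7.60 and 8.41 CPM in Empty vector, 6.79 and 9.05 in clone 12, 7.65 and 9.23 in clone 16, 8.78 and 10.0 in E1KD SCR and 6.82 and 6.44 in E1KD Platr18 KD. E1KD SCR lay above Empty vector by 0.21 (95% interval -0.07 to 0.49, adjusted p = 0.229). The difference of the silencing effect between the kinds was 0.66 ± 0.18 (adjusted p = 0.0208) and 0.49 without E1KD replicate 1 (adjusted p = 0.0328). That call was lost when either NMuMG library, Empty vector replicate 2 or E1KD SCR replicate 1 was left out (adjusted p = 0.0562 to 0.0871). E1KD Platr18 KD fell below E1KD SCR by 0.44 ± 0.13 (adjusted p = 0.0278), a call that was lost in 4 of 13 alternatives.

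Hnrnpk (ENSMUSG00000021546, chr13:58391142-58403343, minus strand) encodes hnRNP K, the most distant and most abundant of these relatives. It stood at 152 and 155 CPM in NMuMG, 119 and 134 in NMuMG + TGFβ, 237 and 163 in E1KD, 159 and 154 in M1P and 171 and 171 in L1P, and ranged from 249.6 to 273 CPM over the 10 high mt-Rnr2 libraries. E1KD overlapped L1P. The E1KD difference of 0.35 ± 0.12 (adjusted p = 0.0208) rested on replicate 1, without which it was 0.08 (adjusted p = 0.243). Summed with its copies Gm7964 and Gm4130 it was 0.09 (adjusted p = 0.246), and -0.02 without that library (adjusted p = 0.718). E1KD SCR differed from Empty vector by 0.09 (95% interval -0.17 to 0.34, adjusted p = 0.603). With TGFβ it differed by -0.28 (adjusted p = 0.0604), and summed with its copies it fell by 0.41 (adjusted p = 6.68e-05).

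Levels of different genes were set side by side per kilobase of the longest coding transcript. Pcbp1 was 90.4% and 91.5% of the summed 4 Pcbp genes in NMuMG, 87.0% and 86.7% in NMuMG + TGFβ, 19.2% and 25.7% in E1KD, 42.0% and 43.2% in M1P and 45.2% and 46.7% in L1P. It was 48.2% and 48.0% in Empty vector and 8.18% and 8.46% in E1KD SCR. The summed level fell from 174 and 186 CPM per kb in NMuMG to 47.2 and 30.3 CPM per kb in E1KD, and from 36.6 and 36.8 CPM per kb in Empty vector to 21.9 and 22.4 CPM per kb in E1KD SCR. In E1KD the mean loss of Pcbp1 was 155 CPM per kb and the mean gain of Pcbp2, Pcbp3 and Pcbp4 together was 14.0 CPM per kb, which is 9.02% of the loss, or 3.96% without E1KD replicate 1. With the Pcbp2 copies added, per kb of Pcbp2, the gain was 14.05% of the loss, or 5.47% without E1KD replicate 1, and Pcbp1 was 79.4% and 80.7% of the sum in NMuMG and 10.7% and 13.6% in E1KD. In E1KD SCR the gain was 1.23 CPM per kb, 7.79% of a loss of 15.8 CPM per kb (7.40% with the copies). In both kinds the sum in silenced cells lay below the sum in unsilenced cells in every library, by this measure of mRNA.

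**Figure D4:**
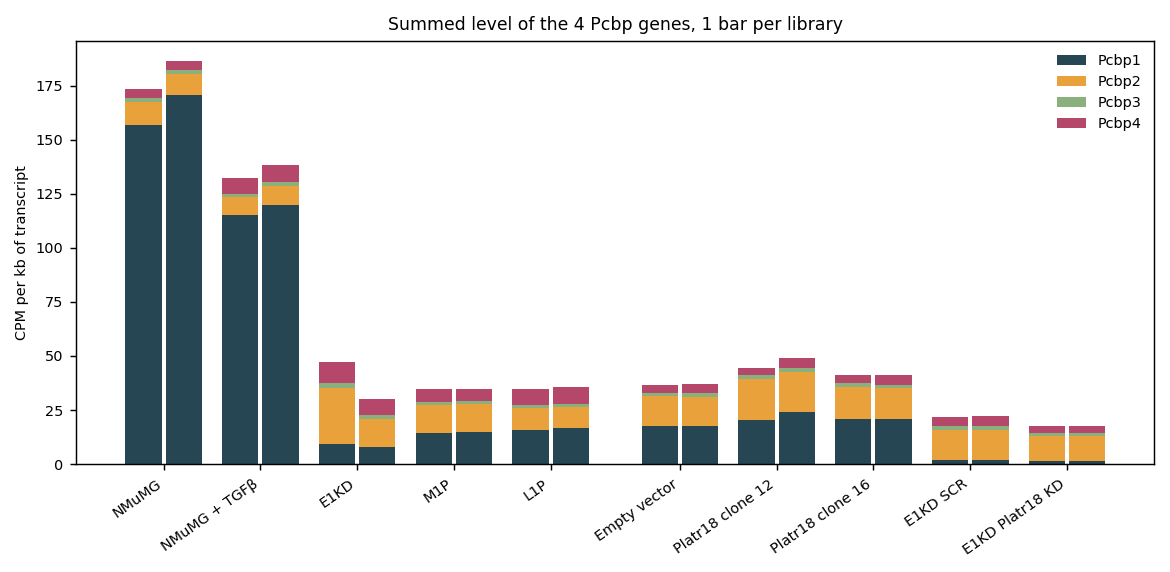
Level of Pcbp1, Pcbp2, Pcbp3 and Pcbp4 in CPM per kb of transcript (linear axis from 0), stacked, with 1 bar per library and 2 bars per condition. The sum falls from 174 and 186 CPM per kb in NMuMG to 47.2 and 30.3 CPM per kb in E1KD, and Pcbp2 is the largest part in E1KD SCR and E1KD Platr18 KD.

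Dab2 (ENSMUSG00000022150, chr15:6299788-6440712, plus strand) encodes disabled-2, a clathrin adaptor and TGFβ signalling protein whose mRNA carries a BAT element. Its level was very low. It stood at 0.0532 and 0.113 CPM in NMuMG, 0.167 and 0.183 in NMuMG + TGFβ, 2.09 and 1.87 in E1KD, 0.367 and 0.248 in M1P and 0.491 and 0.485 in L1P. In reads this was 3 and 6 in NMuMG against 106 and 101 in E1KD, a ratio of 24.01 (95% counting interval 12.4 to 53.3, exact, which covers counting error only). Every low mt-Rnr2 condition lay apart from the next in the order E1KD, L1P, M1P, NMuMG + TGFβ and NMuMG. Dab2 entered the test only through the E1KD libraries, the only ones over 1 CPM, so its differences in comparisons that hold E1KD are descriptions and their p-values are not given.

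E1KD lay above NMuMG by 1.46 ± 0.06 and by 1.40 without E1KD replicate 1. With a pseudocount of 0.1 the difference was 3.52. M1P differed from E1KD by -1.19 ± 0.06, and L1P exceeded M1P by 0.19 (adjusted p = 0.0296, lost in 6 of 12 alternatives). M1P and L1P still exceeded NMuMG, by 0.27 (adjusted p = 0.000945) and 0.46 (adjusted p = 7.21e-06). With TGFβ the difference was 0.12 (95% interval 0.00 to 0.24, adjusted p = 0.0887).

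In the high mt-Rnr2 libraries Dab2 had at most 12 reads in a library. It stood at 0.0138 and 0.0435 CPM in Empty vector, 1 and 3 reads, and at 0.108 and 0.191 in E1KD SCR, 8 and 12 reads, a ratio of 5.19 (95% counting interval 1.74 to 20.9). E1KD SCR exceeded Empty vector by 0.16 ± 0.06 (adjusted p = 0.0324), a call lost when E1KD SCR replicate 2 or either Empty vector library was left out (adjusted p = 0.24, 0.147 and 0.0606). Both E1KD SCR libraries were higher than both Empty vector libraries, as E1KD was above NMuMG in the other kind. The difference of these 2 effects was 1.30 ± 0.08. E1KD Platr18 KD, also silenced for hnRNP E1, stood at 0.0273 and 0.0342 CPM and overlapped Empty vector (difference 0.003, adjusted p = 0.982). Its 4 and 5 reads came from libraries scaled to 147 M reads. Its ratio to E1KD SCR was 0.209 (95% counting interval 0.084 to 0.481), a difference of -0.16 (adjusted p = 0.0661).

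Fam3c (ENSMUSG00000029672, chr6:22306520-22356243, minus strand) encodes ILEI, a secreted interleukin-like inducer of EMT and the other BAT target. It stood at 25.03 and 26.6 CPM in NMuMG, 36.8 and 37.8 in NMuMG + TGFβ, 24.5 and 19.6 in E1KD, 16.5 and 16.1 in M1P and 13.4 and 13.1 in L1P. All 5 conditions lay apart, with TGFβ above NMuMG and each silenced condition below it. E1KD fell below NMuMG by 0.22 ± 0.08 (adjusted p = 0.034), by 0.38 without E1KD replicate 1 (adjusted p = 2.59e-05) and by 0.07 without E1KD replicate 2 (adjusted p = 0.307). M1P fell below E1KD by 0.41 (adjusted p = 0.00146), and by 0.25 without E1KD replicate 1. L1P fell below M1P by 0.28 (adjusted p = 0.0312), a call lost in 5 of 13 alternatives. TGFβ moved Fam3c the other way, by 0.52 ± 0.08 (adjusted p = 0.000102), a call kept in all 13 alternative fits. E1KD lay below NMuMG + TGFβ by 0.74 (95% interval 0.56 to 0.92, adjusted p = 2e-06).

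In the high mt-Rnr2 libraries Fam3c stood at 33.9 and 32.6 CPM in Empty vector, 46.6 and 43.5 in Platr18 clone 12, 44.0 and 43.1 in clone 16, 22.9 and 22.6 in E1KD SCR and 16.8 and 17.2 in E1KD Platr18 KD. The clones overlapped each other and lay above the rest. E1KD SCR fell below Empty vector by 0.53 ± 0.08 (adjusted p = 0.000144), and E1KD Platr18 KD fell below E1KD SCR by 0.40 ± 0.08 (adjusted p = 0.00368). The Platr18 clones exceeded Empty vector by 0.40 ± 0.07 (adjusted p = 0.000798). Each of these 3 calls was kept in all of its alternative fits (largest adjusted p = 0.00269, 0.0361 and 0.0161). The silencing effect on Fam3c was not shown to differ between the kinds (0.30, 95% interval 0.05 to 0.56, adjusted p = 0.0832).

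**Figure D5:**
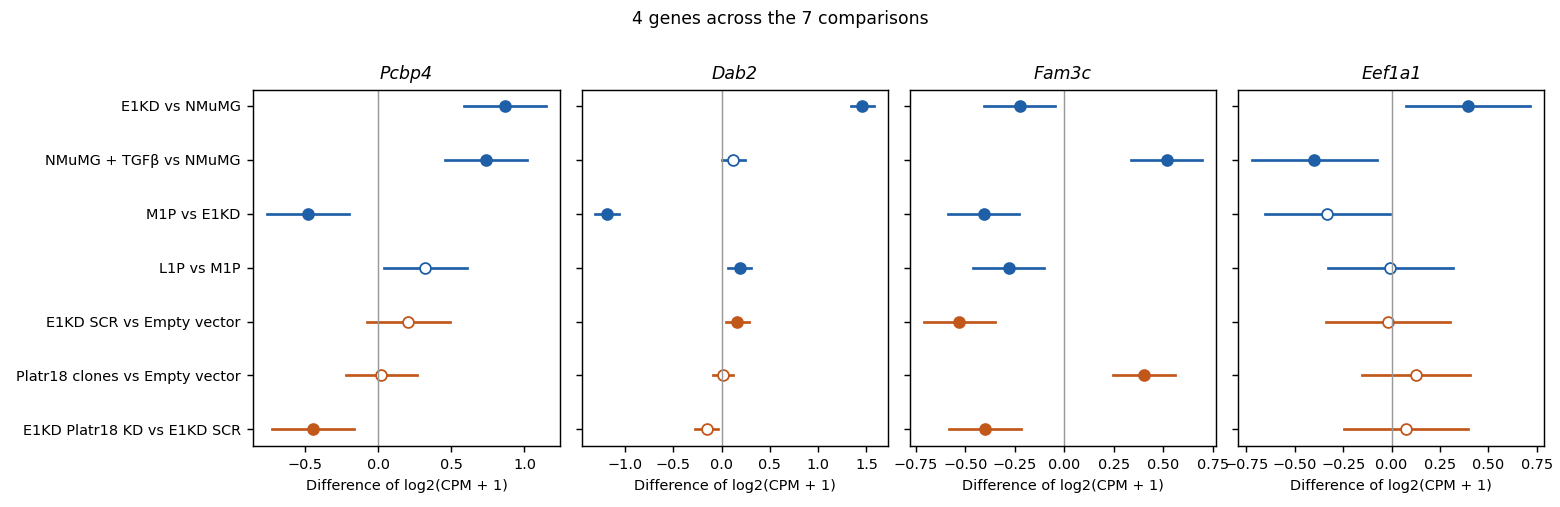
Difference of log2(CPM + 1) with its 95% confidence interval for Pcbp4, Dab2, Fam3c and Eef1a1 in the 4 comparisons of low mt-Rnr2 libraries (blue) and the 3 of high mt-Rnr2 libraries (orange), with filled points called and open points not called. Fam3c is called in all 7, higher with TGFβ and in the Platr18 clones and lower in the other 5, and axes differ between panels.

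Fam3c was called in all 7 main comparisons, though not always under the alternatives. The call was lost in 6 of 15 alternatives in E1KD against NMuMG, 5 of 13 in L1P against M1P and 1 of 15 in M1P against E1KD. In all, 4 of the 8 genes were called with TGFβ (55.4% of all tested genes), 7 in M1P against E1KD (49.1%, and 4 without E1KD replicate 1, when 44.3% of all genes were), 2 in L1P against M1P (18.5%), 2 in the Platr18 clones (28.8%) and 2 on silencing Platr18 in E1KD cells (19.5%). By a stricter rule, p under 0.001 and a difference of at least 1, 2 of the 8 were called in E1KD (9.44% of all tested genes), 0 with TGFβ (13.5%), 1 in M1P (3.59%), 0 in L1P (1.21%), 1 in E1KD SCR (5.98%), 0 in the clones (1.46%) and 0 in E1KD Platr18 KD (1.48%). At an unadjusted limma p under 0.05 these counts were 7, 5, 8, 3, 4, 3 and 4. The share of all tested genes at that p was not computed. It is at least the share called by the adjusted p, so these counts are descriptions. The share of called genes that were higher moved with scaling also in M1P, from 24.6% to 48.4% and 44.9% by median-of-ratios and equal sums, and in L1P, from 60.5% to 47.4% and 54.8%. In the test of the difference between the kinds, 4 of the 8 were called, where 21.3% of all tested genes were. Dab2, which entered the test only through E1KD, is among these 4 and among the 7 in M1P. By the stricter rule it is among the 2 in E1KD and is the 1 in M1P. Its part in these counts, here and below, is a description.

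The M1P calls of Pcbp2, Pcbp4 and Hnrnpk rested on E1KD replicate 1. Against E1KD, M1P was lower for Pcbp2 (-0.54, adjusted p = 0.0325), Pcbp4 (-0.48, adjusted p = 0.00862) and Hnrnpk (-0.33, adjusted p = 0.0364). Without that library the differences were -0.06 for Pcbp2 (adjusted p = 0.45), -0.31 for Pcbp4 (adjusted p = 0.0567) and -0.05 for Hnrnpk (adjusted p = 0.509), whereas the calls for Pcbp1, Pcbp3, Dab2 and Fam3c were kept. M1P and L1P were also the conditions with the highest sums of leukocyte, endothelial and blood markers given above, where Lyz2 was the marker that rose most. Whether such cells were present, and their part in the M1P and L1P values, was not tested.

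Eef1a1 (ENSMUSG00000037742, chr9:78478449-78489151, minus strand) encodes the elongation factor that delivers aminoacyl-tRNA to the ribosome. It stood at 3437 and 3451 CPM in NMuMG, 2427 and 2810 in NMuMG + TGFβ, 5757 and 3564 in E1KD, 3564 and 3635 in M1P and 3589 and 3576 in L1P. E1KD replicate 1 was the highest library, and E1KD overlapped M1P. E1KD differed from NMuMG by 0.40 ± 0.15 (adjusted p = 0.0366), and without replicate 1 by 0.05 (adjusted p = 0.651). NMuMG + TGFβ fell below NMuMG by 0.40 ± 0.15 (adjusted p = 0.0352), a call lost in 6 of 13 alternatives. In the high mt-Rnr2 libraries it ranged from 3910 to 4647 CPM, no comparison was called, and E1KD SCR differed from Empty vector by -0.02 (95% interval -0.34 to 0.30, adjusted p = 0.945).

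The 14 processed copies of Eef1a1 in the table summed to more than the gene itself in each low mt-Rnr2 library, where Eef1a1 was 40.6% to 49.1% of gene and copies. Gm13456 alone stood at 3087 to 4542 CPM there and at 1322 to 1581 CPM in the high mt-Rnr2 libraries. Summed with its copies, Eef1a1 fell by 0.39 with TGFβ (adjusted p = 0.00805), exceeded NMuMG in E1KD by 0.28 (adjusted p = 0.0422, but 0.06 without replicate 1, adjusted p = 0.608) and differed by -0.03 in E1KD SCR (adjusted p = 0.852). The miRNA gene Gm26377, which lies inside Eef1a1, was at 0 in the low mt-Rnr2 libraries and at 224 to 298 CPM in the high ones.

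The other genes of the pathway were taken from lists of known function. Translation elongation factors other than Eef1a1 held 5 called higher and 0 called lower of 8 tested in E1KD, and 1 higher and 0 lower in E1KD SCR, which is 62.5% and 12.5% called beside 56.6% and 42.6% of all tested genes. The median difference was 0.55 in E1KD beside 0.17 over all tested genes, and 0.01 beside 0.02 in E1KD SCR. Without E1KD replicate 1 there were 3 higher and 2 lower, at a median of 0.15. Eif5a, a factor that helps ribosomes through difficult sequences, was the one called the same way in both kinds, at 354 and 346 CPM in NMuMG, 754 and 554 in E1KD, 262 and 264 in Empty vector and 383 and 388 in E1KD SCR (0.88 and 0.55, adjusted p = 5.33e-06 and 0.000583). Without silencing, Eif5a stood at 216 and 234 CPM with TGFβ, 452 and 470 in Platr18 clone 12 and 302 and 329 in clone 16. In E1KD Platr18 KD, also silenced, it stood at 270 and 265 CPM. Eef1e1 (0.58, and 0.22 without replicate 1), Eef2k, the kinase of elongation factor 2 (0.55 and 0.30), and Eef2 itself (0.55) were called in E1KD, but Eef2 not without replicate 1 (0.15, adjusted p = 0.252).

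Of the FAM3 and LIF receptor genes, 5 of 6 tested rose and 1 fell in E1KD, also without replicate 1, and 2 rose and 1 fell in E1KD SCR, where 56.6% and 42.6% of all tested genes were called. The list is of interest because ILEI acts through the LIF receptor. Lifr, that receptor, was listed at 0 in both NMuMG libraries and at 3.66 and 2.402 CPM in E1KD, and at 0 and 0.0146 in Empty vector against 2.23 and 2.14 in E1KD SCR, differences of 1.99 and 1.66. Lifr reached 1 CPM only in E1KD and E1KD SCR and so entered the test through them. Its calls in both counts above are descriptions. In the other silenced conditions it was listed at 0 in M1P and L1P and at 0.0137 and 0.0478 CPM in E1KD Platr18 KD. Socs3, a feedback inhibitor of the same signal, rose by 0.65 and 0.49 (adjusted p = 2.47e-05 and 0.000455). In M1P and L1P, also silenced, Socs3 stood at 43.2 and 44.0 CPM and at 32.6 and 33.5 CPM, beside 42.9 and 42.0 in NMuMG. Fam3a, a paralog of Fam3c, fell by 0.32 and 0.40 (adjusted p = 0.00923 and 0.00255). Lif (0.65) and Il6st (0.60), the ligand and the co-receptor, were called in E1KD, and in E1KD SCR they differed by -0.04 and 0.06 (adjusted p = 0.749 and 0.554).

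Of the Dab family and clathrin adaptor partners of Dab2, 10 of 17 tested were higher and 3 lower in E1KD, 8 and 4 without replicate 1, and 3 and 3 in E1KD SCR, with medians of 0.46, 0.23 and 0.01. That is 76.5%, 70.6% and 35.3% called beside 56.6%, 57.6% and 42.6% of all tested genes. Lrp2 (megalin), an endocytic receptor that binds Dab2, stood at 0.0178 and 0.0378 CPM in NMuMG, 2.05 and 1.07 in E1KD, 0.151 and 0.159 in Empty vector and 0.663 and 0.937 in E1KD SCR. The differences were 1.29 and 0.64, and since Lrp2 reached 1 CPM only in E1KD and Platr18 clone 12, the first is a description. In M1P, L1P and E1KD Platr18 KD, also silenced, Lrp2 stood at 0.0533 to 0.214 CPM. Cltb, a clathrin light chain, rose in both (1.40 and 0.57, adjusted p = 1.55e-08 and 0.000217), and Myo6, a motor that carries Dab2 vesicles, fell in both (-0.82 and -0.47, adjusted p = 3.63e-05 and 0.00442). In E1KD Platr18 KD, also silenced, Myo6 stood at 70.7 and 75.8 CPM and overlapped Empty vector (79.0 and 69.8). Ap2a2, a subunit of the AP-2 adaptor, rose in E1KD (0.96, adjusted p = 2.45e-05).

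PCBP proteins also carry iron to ferritin. Of the iron genes, 9 of 16 tested rows were higher and 2 lower in E1KD, 5 and 4 without replicate 1, and 4 and 4 in E1KD SCR, with medians of 0.38, 0.11 and -0.11. That is 68.8%, 56.2% and 50% called beside 56.6%, 57.6% and 42.6% of all tested genes. Hmox1, the haem oxygenase, stood at 10.3 and 9.50 CPM in NMuMG, 55.4 and 44.7 in E1KD, 12.8 and 12.5 in Empty vector and 22.7 and 22.6 in E1KD SCR (2.22 and 0.79, adjusted p = 1.33e-11 and 1.92e-06). Slc11a2, an iron importer (0.71 and 0.77), and Bola2, a partner of Glrx3 in iron-sulfur transfer (1.04 and 0.62), rose in both. Glrx3 was called in E1KD (0.65, adjusted p = 0.0149) and not without replicate 1 (0.15, adjusted p = 0.112).

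Other KH-domain proteins were called about as often as all tested genes. In E1KD 9 of 25 tested were higher and 4 lower, 7 and 7 without replicate 1, and in E1KD SCR 6 were higher and 6 lower. That is 52%, 56% and 48% called beside 56.6%, 57.6% and 42.6% of all tested genes. Khdrbs3 (SLM2), a splicing regulator, stood at 0.0886 and 0.0567 CPM in NMuMG, 15.7 and 8.35 in E1KD, 0.0549 and 0.145 in Empty vector and 24.04 and 23.05 in E1KD SCR, differences of 3.54 and 4.48. It reached 1 CPM only in E1KD, E1KD SCR and E1KD Platr18 KD and entered the test through them, so these differences are descriptions. In M1P and L1P, also silenced, it was listed at 0. Nova1, another splicing regulator, fell in both (-0.92 and -1.61, adjusted p = 4.73e-06 and 1.83e-08). Akap1, which anchors RNA and kinase at mitochondria, rose in both (1.08 and 0.76, adjusted p = 6.23e-08 and 3.88e-06), and Fxr2 rose in E1KD (0.80, adjusted p = 0.000255, and 0.48 without replicate 1).

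Of 5 genes listed as kinases or splicing targets of hnRNP E1, 3 were called higher and 1 lower in E1KD, also without replicate 1, and 1 higher and 1 lower in E1KD SCR, where 56.6%, 57.6% and 42.6% of all tested genes were called. Cd44, a splicing target, rose in both (0.96 and 0.39, adjusted p = 3.35e-08 and 0.000382), and Pak1, a kinase of hnRNP E1, fell in both (-0.33 and -1.14, adjusted p = 0.0154 and 6.31e-07), in E1KD by -0.54 without replicate 1. Akt1 (0.69, and 0.43 without replicate 1) and Ppp1r10 (0.57) were called in E1KD. Akt2, the kinase of the model described above, was not called in E1KD (36.8 and 40.4 CPM in NMuMG, 43.4 and 36.2 in E1KD). All 6 mesenchymal markers were called higher in E1KD, at a median difference of 1.63, or 1.40 without replicate 1. Their sums were 535 to 556 CPM in NMuMG and 1349 to 1831 in E1KD. In E1KD SCR 4 of 6 were higher, with sums of 656 to 695 in Empty vector and 767 to 832 in E1KD SCR. In E1KD Platr18 KD, also silenced for hnRNP E1, the sum was 520 to 530 CPM. There, 4 of 6 were lower than in E1KD SCR (19.5% of all tested genes called). Without that silencing, 6 of 6 were higher with TGFβ (55.4%) and 4 of 6 in the Platr18 clones (28.8%). Of the 6 epithelial markers tested, 1 was higher and 2 lower in E1KD (0 and 3 without replicate 1 and with both other scalings) and 0 higher and 4 lower in E1KD SCR. Their part in the values of the 8 genes was not tested.

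The genes whose levels were most like those of a member were found by Pearson correlation over the 20 libraries of log2(CPM + 1) centred within each kind, as a description. Libraries of a condition share cells, so the points are not independent. Fam83g (r = 0.99), Igfbp4 (r = 0.99) and Eva1b (r = 0.98) were most like Pcbp1. Igfbp4, for example, stood at 97.5 and 105 CPM in NMuMG and at most 0.315 in E1KD, M1P and L1P. Paqr9 (r = 0.98) and Lrfn1 (r = 0.98) were among those most like Dab2. Lrfn1 stood at 0.0709 and 0.0190 CPM in NMuMG and 3.11 and 3.16 in E1KD. Like Dab2, both reached 1 CPM only in E1KD and were included through it, so their r largely restates that filter.

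Il18rap (r = 0.97), Marveld1 (r = 0.97) and Nf2 (r = 0.96) were most like Fam3c. Il18rap stood at 22.7 and 22.3 CPM in NMuMG, 66.0 and 68.1 CPM with TGFβ and 6.87 and 7.42 in L1P. Hspa8, RP24-407P8.1 and Aatf were most like Pcbp2 (r = 0.96 to 0.97), and Hspa8 was also high in E1KD replicate 1, at 1263 CPM against 667 CPM in replicate 2. Nmt1, Mprip and Adgrl1 were most like Pcbp4 (r = 0.89 to 0.90).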

How the data were processed

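RNA-Seq was read in 20 libraries of NMuMG-derived cells, 2 for each of 10 conditions grouped by the labels. Per the study's methods and processing notes, single-pass HiSeq2500 reads were aligned with Bowtie2 (2.2.5, GRCm38.p6) and assigned to the M18 annotation by Partek's E/M method. The authors deposited CPM values with 0.0001 added to each, scaled to more reads than fell in genes (sums of 0.547 to 0.797 of 1000000). Whole reads were found for 92.1% to 98.1% of values under 20 reads (tolerance 0.05 read), which was too few to recover reads for a count model.

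Tests used limma (version 3.58.1, R 4.3.3; lmFit, then eBayes with trend) on log2(CPM + 1), with 10 condition means, 10 residual degrees of freedom and genes that reached 1 CPM in 2 or more libraries. The study's own Partek test was not used here. With 2 libraries a condition no exact permutation test can pass the threshold. The fit was tested on simulated data. A level of 3 reads was 0.0500 to 0.0591 CPM in low mt-Rnr2 and 0.0204 to 0.0477 CPM in high mt-Rnr2 libraries, and this and the counting intervals cover counting error only. Windows of 50 bases were compared with GENCODE M21 transcripts (GRCm38). Members start at the same coordinates there as in the table.

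Named genes were the 8 members, genes overlapping them, and from each list up to 4 called genes with the largest E1KD difference and up to 3 called the same way in both silencing comparisons, and 3 most correlated genes for 5 members. A gene that this rule names is not reported here. Members and lists were chosen with earlier results of these data known. Alternatives were another pseudocount, filters, scalings, narrower fits, a replicate block, each library left out and a stricter call. The sum with processed copies, a crossed block and the combinations of rescaling or of that sum with leaving out E1KD replicate 1 were chosen after seeing the data.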

Additional observations from a re-analysis of the deposited data

Results flagged for a closer look

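For 4 genes the effect of hnRNP E1 silencing differed between the kinds of library by the limma contrast of both effects. The difference, E1KD against NMuMG minus E1KD SCR against Empty vector, was -1.27 for Pcbp1 (adjusted p = 3.26e-06), 0.84 for Pcbp2 (adjusted p = 0.0411), 0.66 for Pcbp4 (adjusted p = 0.0208) and 1.30 for Dab2. Dab2 entered the test only through the E1KD libraries, where it was high, so its value is a description. The pairs of conditions differ in library kind, in vectors and in culture, which cannot be told apart. On the linear scale Pcbp1 was 5.15% of its control in one pair and 10.4% in the other, from controls of 300 and 32.3 CPM.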

How the results depend on the processing

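Counts of the 8 genes called moved by more than 1.5 times as follows. In E1KD against NMuMG (7) there were 4 with no filter, 4 with only low mt-Rnr2 libraries, 2 with only the compared groups and 2 with the stricter call, and 4 to 7 with each library left out (4 without either NMuMG library). With TGFβ (4) there were 7 with equal protein-coding sums and 0 with the stricter call. In M1P against E1KD (7) there was 1 with only the compared groups and 1 with the stricter call, 4 summed with copies and without E1KD replicate 1, and 4 to 8 with each library left out (4 without E1KD replicate 1). In L1P against M1P (2) there were 4 with equal sums, 4 with only the compared groups, 1 with a pseudocount of 0.1, 1 with a mean of at least 5 CPM (where Dab2 and Pcbp3 are not tested), 0 with only low mt-Rnr2 libraries, 0 with the stricter call and 0 to 1 with each library left out (0 without M1P replicate 2 or either L1P library). In E1KD SCR (3) there was 1 with the stricter call. In the Platr18 clones (2) there were 4 with median-of-ratios scaling, 4 with only the compared groups, 4 with only high mt-Rnr2 libraries, 0 with the stricter call and 1 to 2 with each library left out (1 without either Empty vector library). In E1KD Platr18 KD (2) there was 1 with no filter, 5 with only the compared groups, 5 with only high mt-Rnr2 libraries, 0 with the stricter call and 1 to 2 with each library left out (2 only without E1KD SCR replicate 1). Beside these counts of 0 from limma, the unadjusted p was under 0.05 for 5 genes with TGFβ, 3 in L1P, 3 in the clones and 4 in E1KD Platr18 KD. The share of all tested genes at that p was not computed, and no other tool was run.

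For the difference of the silencing effect between the kinds, the Pcbp2 call was lost with no filter (0.84, adjusted p = 0.0922), with only the compared groups (0.84, adjusted p = 0.271) and summed with copies (0.54), and the Pcbp4 call with only the compared groups (0.66, adjusted p = 0.122). With each library left out the difference was 0.36 to 1.32 for Pcbp2, 0.49 to 0.83 for Pcbp4, -0.285 to 0.188 for Pcbp3, -0.0061 to 0.54 for Hnrnpk, 0.15 to 0.46 for Fam3c and 0.0689 to 0.76 for Eef1a1, and the last 3 passed the threshold without E1KD replicate 2. Without E1KD replicate 1 it was -0.0343 for Hnrnpk with equal sums and -0.0595 summed with copies. The call for Pcbp1 was kept in all alternatives run. The cause of these changes was not tested.

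Of 770 values of a member's difference under alternatives, 644 kept direction and side, 76 lost a call, 36 gained one and 14 changed sign. Those 14 were, summed with copies and without E1KD replicate 1, Hnrnpk in E1KD (-0.0228, adjusted p = 0.718) and Eef1a1 in M1P (0.0040), with equal sums, Pcbp4 (-0.0164) and Hnrnpk (-0.0061) in the Platr18 clones, with equal sums and without E1KD replicate 1, Pcbp3 in E1KD (-0.0184) and Eef1a1 in M1P (0.0036), and otherwise with a library left out. Those ranges were -0.677 to 0.0144 for Eef1a1 in M1P against E1KD, -0.0211 to 0.0073 in L1P against M1P and -0.0650 to 0.0258 in E1KD SCR, -0.0005 to 0.0270 for Pcbp2 in E1KD SCR, and -0.0724 to 0.1115 for Pcbp4 and -0.0029 to 0.0388 for Dab2 in the clones.

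Replicate numbers did not pair the libraries: replicate deviations correlated at -0.12 to 0.13 between compared conditions. With a replicate block the 8 genes kept 7, 4, 7, 2, 3, 2 and 2 calls in the order above and no call changed, while all genes called in E1KD were 9573 against 9687. With the clone 16 numbers crossed (r = -0.12) the clones had 2 members and 4772 genes called. All genes called ranged from 1614 to 12546 in E1KD, 2311 to 11185 with TGFβ (9475), 407 to 12098 in M1P (8392), 207 to 6258 in L1P (3157), 1023 to 10059 in E1KD SCR (7281), 249 to 8138 in the clones (4930) and 253 to 6263 in E1KD Platr18 KD (3334). Depth limits Dab2, which had at most 12 reads in any high mt-Rnr2 library.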
